A study of Mus musculus with 93 samples.

Results

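The blood of tumor-free mice was described on 28 arrays of the 93 in the series, chosen by their titles alone: 14 controls of the validation cohort and 14 controls of the training cohort, which per the methods were divided at random. These mice were wild type FVB/NJ females (FVB/N in another of the labels) with no tumor and no transgene, matched for age and parity to the tumor-bearing mice of the study and, per its methods, housed and bred as they were. Blood came from the cheek pouch, red cells were lysed, and RNA of the leukocyte pellet was extracted at once or after frozen storage, by hand or on an instrument. Per the methods the 14 controls of each cohort were 14 mice. Which array had which treatment, the age of each mouse, and whether any mouse is in both cohorts are not given in the sources used here. No tumor array entered any value.

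Blood leukocytes of mice are mainly B and T lymphocytes and neutrophils, with fewer monocytes, natural killer cells and other types. Neutrophils make the proteins of their granules while they mature in the bone marrow, so transcripts such as lactoferrin mark younger cells, whereas S100A8 and S100A9 stay abundant in mature ones. Young red cells, called reticulocytes, and platelets have no nucleus but carry RNA from their precursors, and both can remain in a leukocyte pellet. Interferons raise a shared set of antiviral genes in nearly all of these cells. In bulk blood, fewer cells of a type and less RNA per cell cannot be told apart.

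The deposited values were log2 signals made with RMA, so 1 unit is a doubling. RMA gives the probe intensities of all arrays a common distribution, so each level is relative to the rest of its array. Array medians ran from 4.3 to 4.87, and the correlation between any pair of arrays over 45037 probe sets from 0.960 to 0.995. Training array 11 and validation array 13 stood apart. Training array 11 had the lowest median (4.3, the next being 4.64) and the highest signal of the bacterial spike-in dap (3.55, the next being 2.57). Validation array 13 had the lowest typical correlation with the others (0.97) and the largest 5′ signal loss of the GAPDH control (5′ minus 3′ of -1.60). Where leaving out either array changed a call or moved a called value by over 1.5 times, the value without it is given. Between validation and training controls, 0 of 45037 probe sets passed an adjusted p of 0.05 (limma, Benjamini-Hochberg; 0% called), while 3093 had an unadjusted p under 0.05.

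The brightest genes of control blood included those of the cytoskeleton, the ribosome, mature neutrophils, platelets and young red cells. Of the 30 brightest, 1810058I24Rik (13.91), Gdpd3 (13.91) and Sephs2 (13.75) were among those not placed in these groups. The order is one of array signal, which also depends on the probes of each gene, and is no order of transcript numbers. Tmsb4x, an actin-binding peptide, averaged 14.24 ± 0.07 (SD, n = 28 here and below), and S100a9, a subunit of the calprotectin complex of neutrophils, 14.20 ± 0.08. Every array had S100a9 between 14.1 and 14.3. Its partner S100a8 averaged 13.64 ± 0.14. Other members of the 30 were Actb (13.99 ± 0.06), B2m, the light chain of MHC class I (13.83 ± 0.07), the lysozyme genes Lyz2 (13.59 ± 0.08) and Lyz1 (13.55 ± 0.12), and the ribosomal genes Rpl41 (14.05 ± 0.13), Rplp2 (14.01 ± 0.12) and Rpl4 (13.51 ± 0.18). Platelets were represented by Clec1b, the podoplanin receptor CLEC-2 (13.60 ± 0.09), Clu, which encodes clusterin (13.80 ± 0.13), and Myl9, a myosin light chain (13.64 ± 0.14).

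Genes of heme synthesis and oxygen carriage also stood among the 30 brightest. Fech, which inserts iron into heme, averaged 13.66 ± 0.22, Alas2, the first enzyme of erythroid heme synthesis, 13.53 ± 0.26, and Bpgm, which makes the ligand that lowers the oxygen affinity of hemoglobin, 13.53 ± 0.19. With Rsad2 (13.55 ± 0.27), known as the antiviral gene viperin, they had the largest SDs of the 30, whose median was 0.12. All 4 were lowest on training array 12. Of the 30, 28 were also among the 30 brightest on validation arrays alone and 27 on training arrays alone, where Alas2, Bpgm and Rsad2 were not.

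The 6 gene lists gave the main cell populations and the interferon response a level on each array, as the mean log2 signal of their measured members. Their levels are shown in the plot of list levels by cohort. The neutrophil list (16 of 20 genes measured) averaged 10.77 ± 0.47, the B cell list (19 of 20) 9.42 ± 0.44, the T cell list (17 of 20) 9.68 ± 0.43 and the interferon list (27 of 30) 8.39 ± 0.36. The platelet list (20 of 22) was the steadiest, at 12.08 ± 0.20. The erythroid list (19 of 25) varied most, at 8.39 ± 0.68. These lists differ in brightness, with a median member mean of 12.19 for platelet and 7.43 for erythroid genes, and brighter genes had smaller SDs. Bright erythroid members differed among themselves, with SDs of 0.19 for Bpgm (mean 13.53) and 0.85 for Car2 (mean 11.94). What part brightness had in the order of the lists was not tested. The remaining genes of each list had no probe set with a gene symbol of their own and were not analysed here.

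**Figure D1:**
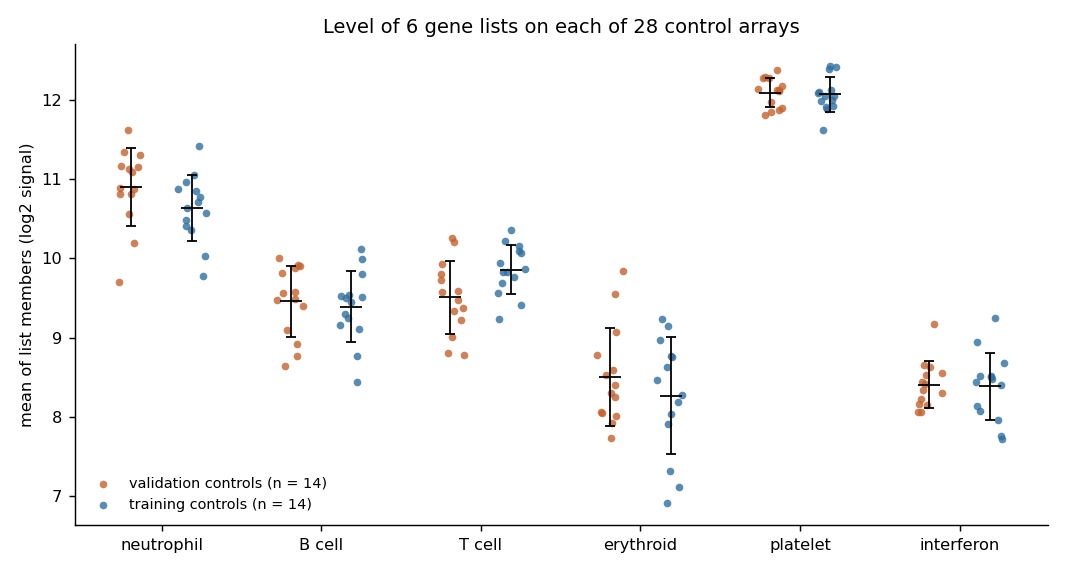
Mean log2 signal of the members of 6 gene lists on each control array; points are arrays, with 14 validation controls left of 14 training controls in each list, and bars give the mean and SD. The erythroid list spreads most, from 6.91 to 9.84, the platelet list least, and the cohorts overlap in every list.

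The erythroid list was lowest on training array 12 (6.91), had a median of 8.35, and was highest on validation array 1 (9.84), a range of 7.61-fold. The neutrophil list ran from 9.70 on validation array 1 through a median of 10.82 to 11.62 on validation array 11, a range of 3.78-fold. Validation array 1 was thus at the top of the erythroid list and at the bottom of the neutrophil list. The B cell list ran from 8.44 on training array 1 to 10.12 on training array 2, and the T cell list from 8.78 on validation array 13 to 10.36 on training array 13. Training array 1, lowest in B cell genes, had the highest interferon (9.24) and platelet (12.43) levels. Training array 11 had the lowest interferon level (7.72), with training array 2 next (7.76).

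The pellet carried the markers of blood cells and little sign of other tissue. Milk protein genes averaged 2.57, with 0 of 9 above 6 on any array, and the epithelial list averaged 4.49. Among the epithelial markers Cdh1, which encodes E-cadherin, was above 6 on average (7.10 ± 0.65), and Krt18, a simple-epithelium keratin (4.70 ± 0.89), reached 7.03 on training array 2. In the skeletal muscle list the fast troponin Tnni2 (6.65 ± 0.42) and the light chain Mylpf (6.55 ± 0.28) were above 6, while Acta1, Ckm and Myh4, which define muscle, stayed at or under 5.56. Kdr, a VEGF receptor, was the 1 endothelial gene above 6 (7.38 ± 0.39), with the defining Cdh5 at 2.84 ± 0.26. Primary granule genes, made at the earliest neutrophil stage, were dim: Elane 2.62 ± 0.32, Mpo 4.45 ± 0.83 and Prtn3 5.88 ± 0.99, the last reaching 7.93 on validation array 11.

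Of 9010 genes with a mean log2 of 6 or more, the median SD over the 28 arrays was 0.25. Only 27 genes (0.30%) had an SD above 1, and 2510 (27.9%) had an SD under 0.2. Dimmer genes had larger SDs, with a median of 0.31 for means of 6 to 8 and of 0.15 for means of 12 or more. The 30 genes of largest SD, from 0.99 to 2.302, fell into a few groups when each was set against the 6 list means (a gene left out of its own list): 14 followed the neutrophil list most closely, 10 the erythroid list, 3 the platelet list with a negative sign, 2 the T cell list and 1 the interferon list. These SDs and groupings are descriptions of the arrays that were ranked and were not tested.

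The 2 most variable genes encode secreted proteins of inflammation. Saa3, an acute-phase serum amyloid A, had an SD of 2.302 and ran from 3.55 through 7.43 (the median) to 11.6 on validation arrays, against 3.76, 5.13 and 9.54 on training arrays. Prok2, the secreted prokineticin 2 of neutrophils, had an SD of 2.22 and ran from 4.74 through 9.42 to 12.3 on validation arrays, against 3.97, 6.88 and 10.2 on training arrays. Validation array 11 was highest for both, and the cohorts overlapped over most of their range. The ends were 265-fold apart for Saa3 and 322-fold for Prok2, with low ends that lie under the median signal of an array. Both ranges rest on validation array 11, and without it they were 79.9-fold for Saa3 and 150.1-fold for Prok2. Without training array 11, where Prok2 was lowest, its range was 189-fold. Prok2 had 2 further probe sets, both with a mean under 6, and the closer of them followed it with r = 0.89.

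Stfa3, a stefin that inhibits cysteine proteases (SD 1.55), Acod1, the enzyme that makes itaconate (1.38), and Reck, a membrane-anchored inhibitor of metalloproteinases (1.26), came next. Acod1 and Reck were highest on validation array 11 (9.20 and 8.98) and lowest on validation array 13 (3.48 and 3.26). Without validation array 13 their lowest values were 3.9 and 4.14, both on training array 11. The secondary granule genes Ltf, Camp and Ngp are made together in maturing neutrophils. Ltf, lactoferrin, ran from 7.07 through 10.2 to 12.2 on validation arrays and from 6.57 through 9.22 to 10.8 on training arrays. Ltf followed Ngp with r = 0.98 and Camp, the cathelicidin precursor, with r = 0.98, and all 3 were highest on validation array 3 and lowest on training array 11. Without training array 11 the lowest value of Ltf was 7.07, and its SD 1.13 in place of 1.25. Saa3 instead followed the lipid flippase Atp11a (r = 0.93) and Upp1, uridine phosphorylase (r = 0.91). Over the 91 pairs of the 14 genes the median r was 0.76, with a range from 0.39 to 0.98.

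The 10 variable genes closest to the erythroid list moved almost as 1 unit, with a median r of 0.95 over 45 pairs and a lowest r of 0.85. They included Trim10, a RING protein of late erythroid cells (SD 1.25), the blood group genes Kel (1.19) and Rhd (1.02), the membrane skeleton genes Ank1, ankyrin (0.99), and Dmtn, dematin (0.99), the prion protein gene Prnp (1.03) and the actin nucleator Spire1 (1.02). Kel ran from 5.12 through 6.46 to 8.97 on validation arrays and from 3.95 through 6.66 to 8.26 on training arrays. All 10 were highest on validation array 1 and lowest on training array 12. Between these genes and the 14 of the neutrophil group the median r over 140 pairs was 0.08.

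**Figure D2:**
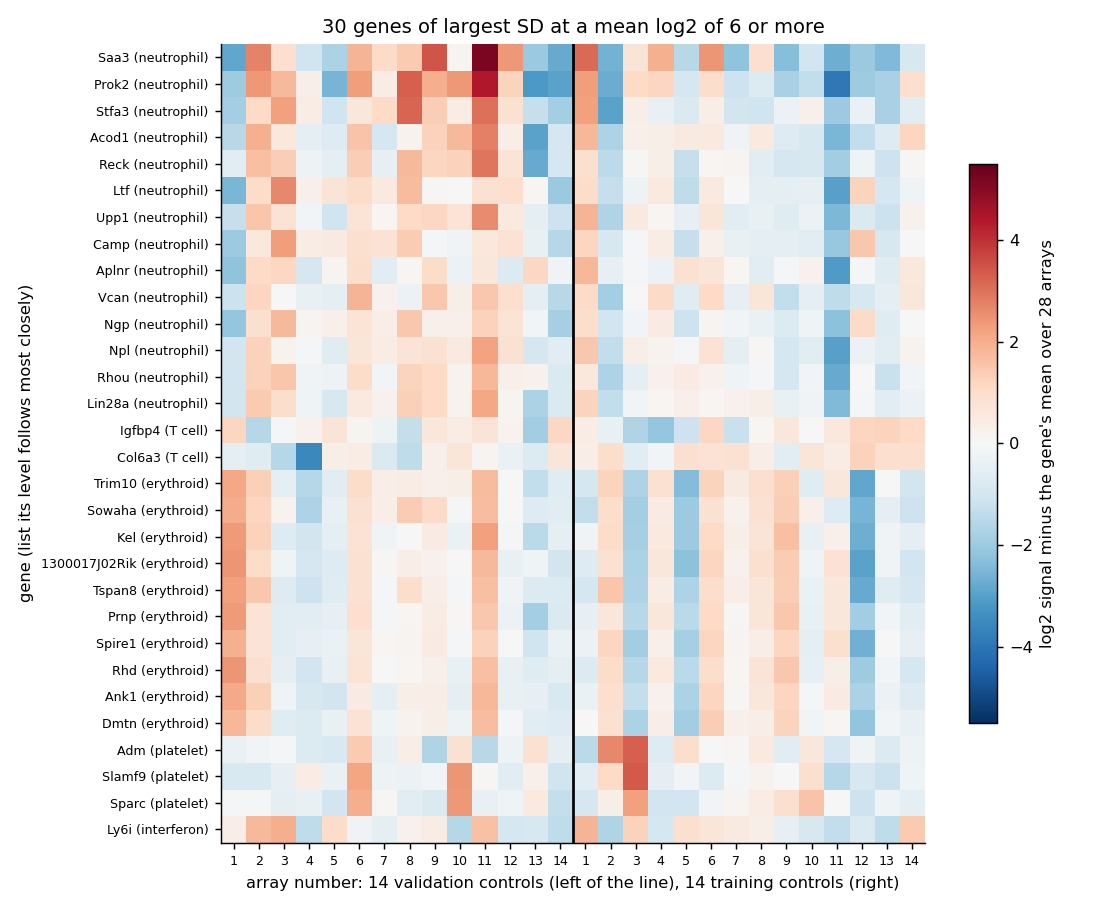
Log2 signal minus the gene's mean over 28 arrays for the 30 genes of largest SD (rows, with the list each follows most closely) on 14 validation controls, left of the line, and 14 training controls, right of it. Saa3, Prok2, Acod1 and Reck are highest on validation array 11 and Ltf, Camp and Ngp on validation array 3, while all 10 erythroid genes are highest on validation array 1 and lowest on training array 12.

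The other 6 of the 30 followed neither list most closely. Adm, the vasodilator adrenomedullin (SD 1.14), and Slamf9, a receptor of the SLAM family (SD 1.12), were both highest on training array 3, each at 9.83, and Sparc, a matrix protein (SD 1.01), was highest on validation array 10 at 8.56. Over the 3 pairs of these genes r ran from 0.63 to 0.81. Slamf9 and Sparc shared Zbtb32, a zinc finger repressor of lymphocytes, as closest partner (r = 0.92 and 0.86). Ly6i, a Ly6 surface protein (SD 1.18), followed the interferon-induced GTPase genes Gbp2 (r = 0.87) and Gbp3 (r = 0.87). Igfbp4, which binds IGF (SD 1.03), followed Pdlim4 (r = 0.87). Col6a3, a collagen chain (SD 1.03), had no close partner, the highest r being 0.59, and its SD rested on validation arrays, where it was 1.14 and ran from 3.60 to 7.85, against 0.58 and 6.55 to 8.44 on training arrays.

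The threshold on the mean divided genes of like spread. Just inside it lay Reck (mean 6.04, SD 1.26), Sparc (6.19, 1.01) and Ampd1 (6.10, 0.95), and just outside it Gm20161 (mean 5.83, SD 1.29), Gm17767 (5.8, 1.05) and Prtn3 (5.88, 0.99).

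Genes were ranked much alike by their SD in the cohorts. Across the 9010 genes the SD over validation arrays and that over training arrays had a Spearman rho of 0.72. This is a description across genes that share arrays, not a test. Dimmer genes had larger SDs, and what part signal level had in this rho was not tested. The 30 genes of largest SD in training controls had a median SD of 0.98 in validation controls, against 0.25 for all genes there, and the lowest of them stood at the 96.2 percentile. In the other direction the 30 genes of largest SD in validation controls had a median SD of 1.02 in training controls, where all genes had 0.24. Of the 2 sets of 30, 14 genes were shared.

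**Figure D3:**
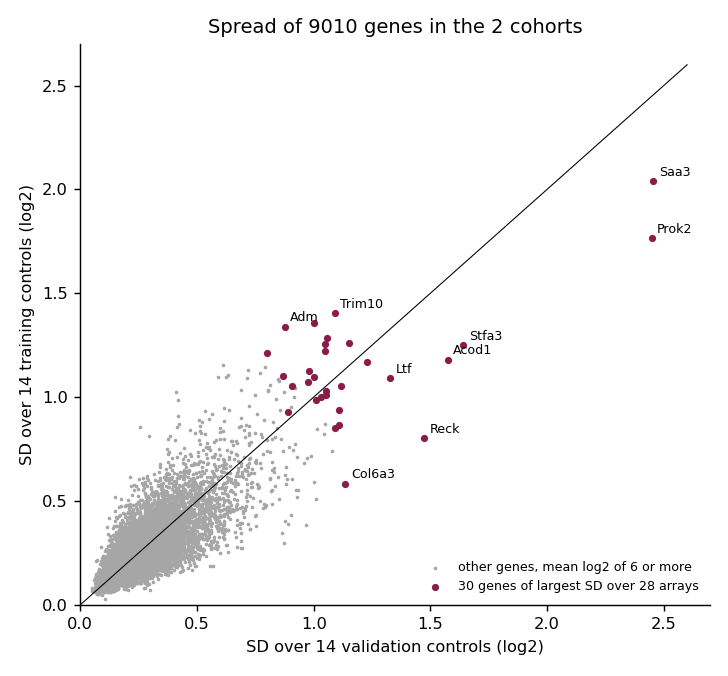
SD of log2 signal over 14 validation controls (horizontal) and 14 training controls (vertical) for 9010 genes with a mean of 6 or more over all 28 arrays; dark points are the 30 genes of largest SD over all arrays and the line marks equal SDs. Saa3 and Prok2 lie above the other genes in both cohorts, and Col6a3 (1.14 in validation controls and 0.58 in training controls) lies well under the line.

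Members of a list mostly moved with each other. In what follows a member is closest to the list with which it has the highest positive r, whereas the grouping of the 30 variable genes also counted negative r. In the neutrophil list, 15 of 16 members were closest to the other members of their own list, and 13 when negative r counted as well (S100a9 had -0.65 with the T cell list, Csf3r -0.33 with the erythroid list and Il1r2 -0.58 with the B cell list). The highest r were those of Mmp8, the neutrophil collagenase (r = 0.94), and Lcn2, the iron-siderophore binder lipocalin-2 (12.15 ± 0.70, r = 0.93). S100a9 was the brightest and least variable member, Ltf the most variable, and Itgam, the integrin CD11b, the dimmest (6.96 ± 0.40). Csf3r, the G-CSF receptor, had the lowest r (0.31). Il1r2, a decoy receptor of interleukin-1, was closest to the platelet list (r = 0.51, against 0.39 with its own). Genes outside the lists that followed the neutrophil mean best were Chil1, a chitinase-like protein (r = 0.93), the interferon lambda receptor Ifnlr1 (0.93), Aph1b (0.93), the peptidoglycan binder Pglyrp1 (0.92), Mgst1 (0.92) and AA467197 (0.92).

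All 19 B cell genes were closest to their own list. Cd79a, a signalling chain of the B cell receptor, followed the others with r = 0.97 and ran from 9.50 to 11.2 on validation arrays and from 9.42 to 11.3 on training arrays. Its partner Cd79b was the brightest member (11.80 ± 0.46). Fcer2a, the low-affinity IgE receptor CD23 (7.72 ± 0.72), was the most variable, Cr2, complement receptor 2, the least tied to the others (r = 0.72), and the transcription factor Pax5 the dimmest (4.64 ± 0.41). Outside the lists the closest genes were Siglecg, an inhibitory receptor of B cells (r = 0.97), Iglv1 (0.96), Ighv14-2 (0.95), Gga2 (0.95), Ighm, the IgM heavy chain (0.94), and B3gnt5 (0.93). The most opposed gene was F10, coagulation factor X (r = -0.82).

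All 17 T cell genes were likewise closest to their own list. Cd247, the zeta chain of the T cell receptor complex, followed the others with r = 0.98 and ran from 6.92 to 9.19 on validation arrays and from 7.75 to 9.27 on training arrays. Il7r, the interleukin-7 receptor, was the brightest (11.63 ± 0.33) and Trat1, a receptor-associated adaptor, the dimmest, the most variable and the least tied to the rest (5.27 ± 0.73, r = 0.68). Outside the lists Trav9d-3 (r = 0.96), Trbv1 (0.96), the adaptor Skap1 (0.95), Fam189b (0.94), Pik3ip1 (0.94) and Atp1b3 (0.94) were closest. Tcn2, the vitamin B12 carrier transcobalamin, and Grn, progranulin, were the most opposed (r = -0.82 and -0.81).

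In the platelet list all 20 genes were closest to their own list. F2rl2, the thrombin receptor PAR3, had the highest r (0.93), Clec1b was the brightest, Selp, P-selectin, the dimmest and most variable (9.02 ± 0.49) and the least tied to the rest (r = 0.66). Pf4, platelet factor 4, lay between 13.3 and 13.7 on all arrays. Slamf1 (r = 0.96), Nckap1 (0.95), Gucy1a1, a subunit of the nitric oxide receptor (0.95), Mrvi1 (0.94), Bcr (0.94) and Gatad1 (0.94) followed the list mean best from outside.

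In the erythroid list, 18 of 19 genes were closest to their own list (17 with negative r counted), and r with the other members reached 0.98 for Rhd. Rhd ran from 5.98 to 9.44 on validation arrays and from 5.09 to 8.51 on training arrays. Trim10 was the most variable member and Fech the brightest. The alpha globin gene Hba-a1 was the dimmest (2.40 ± 0.24, r = 0.26), and at -0.60 with the T cell list. It was measured by a single probe set, as probe sets with several gene symbols were not used. That probe set read 2.08 to 3.18, under the lowest array median (4.3), and cannot tell how much alpha globin RNA was present. Aqp1, the water channel aquaporin-1, had the lowest r (0.25) and followed the platelet list instead (r = 0.82). Outside the lists Dmtn (r = 0.98), 1300017J02Rik (0.98), Dhrs11 (0.98), the mitochondrial enzyme Pck2 (0.98), 2500002B13Rik (0.98) and Ranbp10 (0.98) were closest. Only 310 of 8799 genes outside the lists (3.52%) had an r of 0.6 or more with the erythroid mean, with 149 (1.69%) for the interferon mean at the low end of the 6 lists and 1264 (14.4%) for the T cell mean at the high end.

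GATA factors, which drive erythroid genes, bind the letters AGATAA. Among 13 erythroid members with a promoter in the RefSeq table (assembly GRCm38.p6, 250 bases before to 50 after the annotated start), 5 held these letters on either strand (38.5%), against 12.7% of 27025 genes with promoters of that length. AGATAA was also in 5 of 16 platelet (31.25%), 3 of 13 T cell (23.1%) and 3 of 15 neutrophil genes (20%). It was in 3 of 18 interferon genes (16.7%) and 0 of 14 B cell genes. The CACCC motif CCACACCC, searched on both strands, was in 0 of the 13 erythroid members and in 4.09% of all 27025 genes. A match is a description of the letters and not a measured binding site. The windows of the 3 matching erythroid genes with the highest r to their list follow, 5′ to 3′ along the gene. The motif, or its reverse complement, is in capitals. They show the letters that Rhd, Kel and Trim10 share upstream.
Rhd, chr4:134864469-134864522, plus strand: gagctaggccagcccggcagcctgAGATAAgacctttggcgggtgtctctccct
Kel, chr6:41704352-41704405, minus strand: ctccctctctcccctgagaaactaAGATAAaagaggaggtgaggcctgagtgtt
Trim10, chr17:36869387-36869440, plus strand: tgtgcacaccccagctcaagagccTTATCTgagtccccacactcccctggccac

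The interferon list was the least uniform, with 23 of 27 members closest to their own list. Rtp4, a chaperone of receptor transport, followed the others best (8.27 ± 0.79, r = 0.94) and was highest on training array 1 (10.1) and validation array 2 (10.0). Oas2, a sensor of double-stranded RNA, was the most variable (6.73 ± 0.80) and the GTPase Mx2 the dimmest (4.17 ± 0.41). From outside the lists, Parp12 (r = 0.90), Slfn5 (0.89), the GTPase Irgm1 (0.88), Parp9 (0.88), the signalling factor Irf9 (0.88) and the helicase Ddx60 (0.87) followed the list mean.

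Rsad2 did not follow the interferon list (r = -0.12), and its 3 probe sets were alike in this (r from -0.12 to -0.11). It followed the erythroid list, with r = 0.92 over all arrays, 0.91 in validation controls and 0.94 in training controls. Rsad2 was 14 on validation array 1 and 12.7 on training array 12, the same arrays that held the ends of the erythroid list. Ifit2 (r = -0.02 with its own list) was closest to the platelet list (r = 0.62), as was Lgals3bp (0.66), which was more strongly opposed to the B cell list (r = -0.75). The RNA sensor gene Ddx58 was closest to the T cell list (0.59, with 0.67 in validation controls and 0.29 in training controls), but its other probe set of like signal (mean 7.63) followed the interferon list more closely (0.51) than the T cell list (0.36). For Ifit2 the tie to platelet genes was 0.30 in validation controls and 0.89 in training controls.

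Interferon-stimulated genes are switched on through a response element with the core GAAANNGAAA. Of 18 interferon genes with a promoter in the same RefSeq table, 10 held this core on either strand (55.6%), against 3.99% of all 27025 genes. Members with the core had a median r to the rest of the list of 0.71 and those without it of 0.76. The windows printed are those of the 5 members with the highest r that hold the core ahead of the start, and of Rsad2, which holds it but did not follow the list. The core, or its reverse complement, is in capitals.
Stat2, chr10:128270252-128270309, plus strand: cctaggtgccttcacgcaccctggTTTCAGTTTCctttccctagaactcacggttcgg
Gbp3, chr3:142559975-142560032, plus strand: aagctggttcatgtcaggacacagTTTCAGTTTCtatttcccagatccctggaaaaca
Oas1a, chr5:120907526-120907569, minus strand: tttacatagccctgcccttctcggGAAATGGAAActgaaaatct
Oas3, chr5:120777701-120777758, minus strand: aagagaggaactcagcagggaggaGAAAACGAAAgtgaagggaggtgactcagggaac
Trim30a, chr7:104465196-104465253, minus strand: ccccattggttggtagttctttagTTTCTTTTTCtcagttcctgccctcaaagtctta
Rsad2, chr12:26456539-26456596, minus strand: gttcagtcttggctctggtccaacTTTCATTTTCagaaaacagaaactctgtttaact

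How the 6 lists vary together was tested over their 15 pairs with permutation tests of 100000 resamples, two-sided, with Benjamini-Hochberg adjustment over the 15. Of these, 4 passed an adjusted p of 0.05. B cell genes were low on arrays where platelet genes were high (r = -0.60, p = 0.00088, adjusted p = 0.0132, Spearman rho = -0.55 with an adjusted p of 0.0245). The relation was alike in validation controls (r = -0.59) and training controls (r = -0.64), and r was -0.54 without the 2 arrays farthest from the B cell median (adjusted p = 0.0224). With each array's median subtracted it was -0.38, with an adjusted permutation p of 0.13.

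Neutrophil and T cell genes moved in opposite directions (r = -0.52, p = 0.00418, adjusted p = 0.0188, rho = -0.57 with an adjusted p of 0.0245). The relation was -0.64 in validation controls and -0.16 in training controls, a difference with an adjusted permutation p of 0.492, and -0.47 without the 2 arrays farthest from the neutrophil median, at an adjusted p of 0.0603. Validation array 13, lowest in T cell genes, was at 10.56 in neutrophil genes.

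Interferon genes were high with neutrophil genes and low with B cell genes. For the neutrophil pair r was 0.55 (p = 0.00272, adjusted p = 0.0188), 0.38 in validation controls and 0.74 in training controls, and 0.58 without the 2 farthest arrays (adjusted p = 0.013). Its rho was 0.42 with an adjusted p of 0.108, and with array medians subtracted r was 0.46, at an adjusted permutation p of 0.0543. For the B cell pair r was -0.52 (p = 0.00501, adjusted p = 0.0188, rho = -0.49 with an adjusted p of 0.0467), -0.66 in validation controls and -0.44 in training controls. Without the 2 arrays farthest from the B cell median it was -0.41, at an adjusted p of 0.104. Within the cohorts, with 14 arrays each, 0 pairs passed in validation controls and 1, neutrophil with interferon, in training controls.

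**Figure D4:**
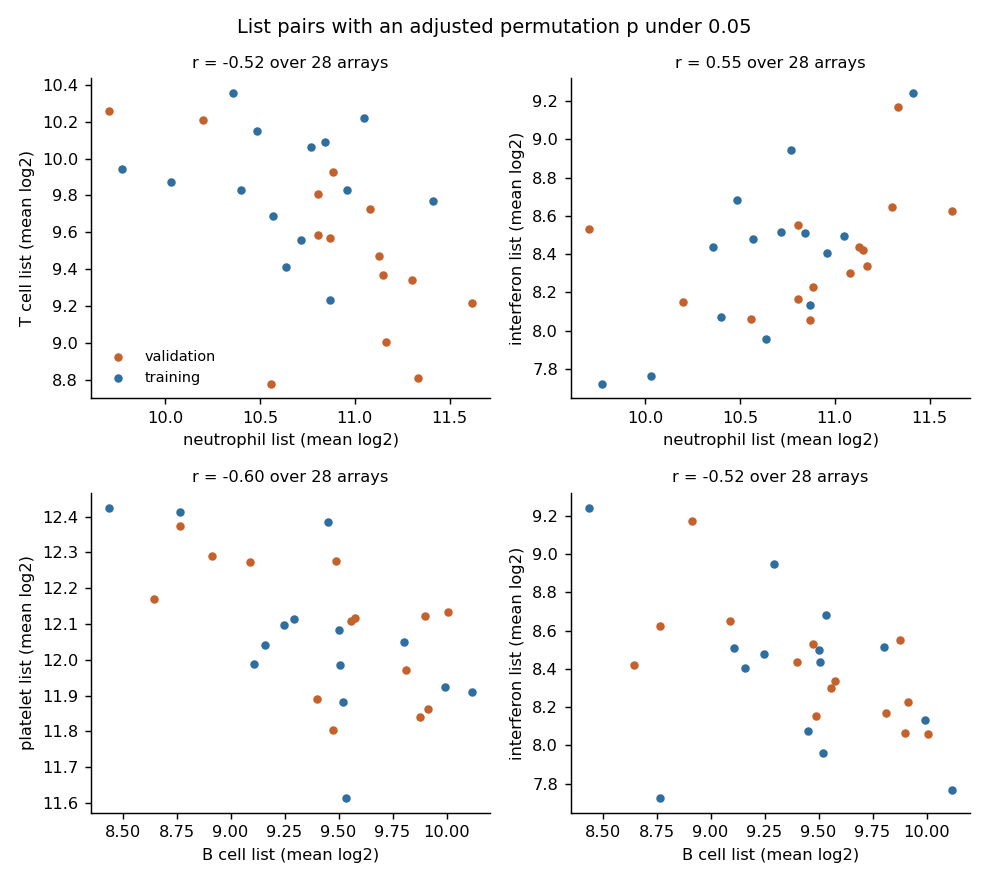
Mean log2 level of one list against another on 28 control arrays (validation and training in different colours) for the 4 pairs with an adjusted permutation p under 0.05. Neutrophil with T cell, B cell with platelet and B cell with interferon genes genes slope downward (r of -0.52, -0.60 and -0.52), and neutrophil with interferon genes slope upward (r of 0.55).

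The other 11 pairs did not pass. B and T cell genes had an r of 0.04 (adjusted p = 0.868), with 0.30 in validation controls and -0.24 in training controls. Neutrophil and B cell genes had -0.33 (adjusted p = 0.261). Training array 11, which was low in both, weakened this r: without it r was -0.52 (adjusted p = 0.0195). The same array decided the pair of neutrophil and platelet genes, with 0.26 on all arrays (adjusted p = 0.325) and 0.47 without it (adjusted p = 0.0358). The erythroid list had no called partner, with r from -0.29 (B cell) to 0.16 (platelet). With the actin difference and 18S partialled out, erythroid with platelet turned to -0.56, at an adjusted permutation p of 0.00955.

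The erythroid level moved with the signal of the 18S ribosomal RNA control, a probe set that reports how much ribosomal RNA the label carried. Over 24 relations of the 6 lists with 4 array measures (the 18S level, the 5′ minus 3′ differences of actin and GAPDH, and the array median, a family chosen after the lists were seen), erythroid with 18S was the only one with an adjusted permutation p under 0.05. Its r was 0.73 (p = 1e-05, the smallest the resamples can give, adjusted p = 0.00024) and its rho 0.73. It was 0.58 in validation controls, 0.84 in training controls, and 0.68 without the 2 arrays farthest from the 18S median (p = 0.0001). The 18S signal ran from 6.74 to 8.48 over the arrays. What part ribosomal RNA had in the erythroid levels was not tested.

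**Figure D5:**
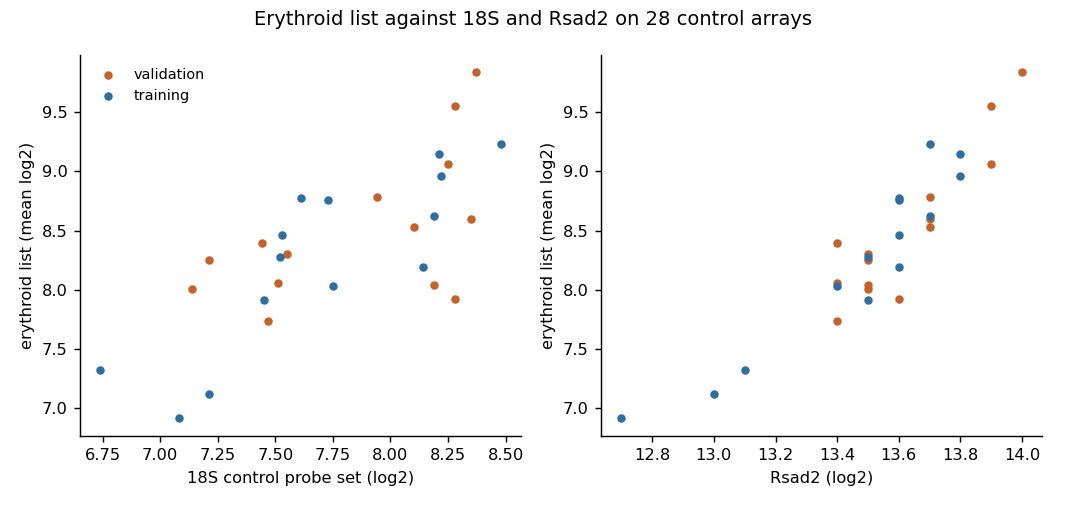
Mean log2 level of the erythroid list (vertical) against the 18S control probe set (left panel) and against Rsad2 (right panel), log2 signal on 28 control arrays in 2 colours for validation and training. The erythroid level was higher on arrays of higher 18S signal (r of 0.73) and followed Rsad2 more closely (r of 0.92).

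Gene by gene, limma called 7944 of 45037 probe sets for the 18S level (17.6%), 3382 higher (7.51%) and 4562 lower (10.1%). After subtraction of array medians the calls were 7717 higher and 2134 lower, so the balance of directions rests on the scaling. In the erythroid list 18 of 19 genes were higher with 18S, with a median slope of 1.07 log2 units per unit of 18S against 0.02 for all genes, and 19 of 19 after subtraction of the median. Kel had a slope of 1.72 ± 0.33 (SE, adjusted p = 0.00107), Trim10 1.68 ± 0.36 (adjusted p = 0.00276) and Rsad2 0.45 ± 0.07 (adjusted p = 4.86e-05). Aqp1 had 0.31 ± 0.13 (adjusted p = 0.0871), the 1 erythroid gene that did not pass. The genes that passed thus included dim ones such as Hba-a1 (mean 2.40), whose probe set cannot tell how much alpha globin RNA was present. Of the 19 members, 13 had a mean of 6 or more.

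Other lists were divided along the same measure. Over all 18193 genes 1609 were higher and 2164 lower with 18S, and 3526 and 893 after subtraction of the median. Without training array 11 these counts were 1921 and 2021, and without validation array 13 they were 1427 and 1955. In the platelet list 9 of 20 genes were higher with 18S and 0 lower, and 5 without training array 11. Of the T cell genes 6 of 17 were lower, with 2 after subtraction of the median and 3 without validation array 13, and of the B cell genes 6 of 19 were lower, with 11 without validation array 13. In the ribosomal protein list 9 of 11 genes were lower, with 2 after subtraction of the median. The neutrophil list had 0 of 16 called and the interferon list 1 of 27, Rsad2.

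The 5′ losses of the control transcripts called fewer probe sets than 18S. The actin difference called 1076 probe sets (2.39%), or 415 without validation array 13. On all arrays the calls held 2 of 20 platelet and 1 of 27 interferon genes, and 0 of the neutrophil, B cell, T cell and erythroid genes. The actin difference ran from -0.9 to -0.5 over the arrays, less than a full unit, so slopes per unit exceed the change seen. The T cell genes had a median slope of 1.89 log2 units per unit of the actin difference, against -0.13 for all genes. After subtraction of array medians 4 of 17 were higher, against 558 of all 18193 genes. The interferon gene was Ifit2, with a slope of 2.75 ± 0.54 (SE, adjusted p = 0.00539). The GAPDH difference called 2694 probe sets (5.98%), with 3 of 27 interferon genes and at most 1 gene in any other of the 6 lists, but 0 probe sets passed without validation array 13 (limma, 2750 with an unadjusted p under 0.05). Their part in the list levels was not tested.

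The first principal component of the 9010 genes held 24.4% of the variance, the second 17.7% and the third 12.98%. The first set arrays high in neutrophil (r = 0.60) and platelet genes (0.67) against arrays high in T cell (-0.78), B cell (-0.61) and ribosomal protein genes (-0.89), with validation array 2 at the high end and training array 3 at the low end. The second was led by training array 11 (0.73), with Prok2 and Saa3 opposed to it, and the third by validation array 13 (0.67). Without both arrays, the second held 13.4% and was led by validation array 1 (0.56), and the third held 11.6% and was led by validation array 8 (0.47). Left out in turn, single arrays moved the share of the first component between 21.1% (without validation array 2) and 27.5% (without training array 11).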

How the data were processed

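Leukocyte RNA was amplified and hybridised to Affymetrix whole-genome mouse arrays, 1 per sample. The authors used RMA (version not given in the sources used here), so what they deposited is log2 signal. Their methods also describe a standardization on control probe sets, and it is not stated if the table was made before or after it. RMA sets the probe intensities of all arrays to 1 distribution, so a rise of some genes can lower others. The probe set values made from them still had array medians from 4.3 to 4.87. Values carry 3 significant digits, hence steps of 0.01 under 10 and 0.1 above. Arrays give no counts, so their number limits the precision.

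Of 45101 probe sets, 64 controls were set aside. A platform table gave 34945 of the other 45037 a single symbol (932 had several, 9160 none), 34741 of which matched RefSeq genes by Entrez identifier. The probe set of highest mean stood for a gene, which left 18193 genes. Fits used limma 3.58.1 in R 4.3.3 with an intensity trend and Benjamini-Hochberg adjustment over all probe sets. Correlations used numpy 2.4.6 in Python with 100000 permutations. Scripts were tested on simulated data.

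Genes were named from the 30 of highest mean, the 30 of largest SD and neighbours of the threshold. From each main list came its brightest, dimmest, most variable, best and worst following members, and the 6 closest genes outside. The pool also held the 4 brightest members of other lists, and members above 6 of lists for absent cells. Not every gene of these sets is named. The members and lists were chosen with earlier results of these data known. Choices made after seeing these values were the arrays left out singly, the correlations of list means with array measures, the test of cohort differences in r, and the genes named as partners, as opposed to a list, as closest to another list, or as defining or second-ranked markers (Lcn2, Pf4, Elane, Cdh5, Acta1, Ckm, Myh4, Prg2, Epx, Fcer1a).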

Additional observations from a re-analysis of the deposited data

Results flagged for a closer look

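Erythroid and interferon genes had an r of opposite sign in the cohorts. Their r was 0.56 in validation controls and -0.45 in training controls, a difference of 1.01 with a permutation p of 0.0013 from 20000 reassignments of the cohort labels (adjusted p = 0.0195 over the 15 pairs, the 1 pair of 15 to pass). Leaving out single arrays gave 0.49 to 0.64 in validation controls and -0.49 to -0.38 in training controls. Without Rsad2 in the interferon list the values were 0.54 and -0.47. Neither cohort's own r passed the adjusted threshold. The test of the difference was chosen after seeing the values. Per the methods the cohorts were divided at random, so its p describes this division and no known difference between the mice.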

How the results depend on the processing

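The count of 0 between validation and training controls stayed at 0 with a filter on dim probe sets, with array medians subtracted, without the intensity trend, with the actin difference in the fit, and without either outlying array. With the label number as a replicate block it was 0 as well (2794 with an unadjusted p under 0.05). The numbers share no more than a label: deviations of equal-numbered arrays correlated from -0.29 to 0.26, 6 of 14 were over 0.1, and 1 of 14 arrays was closest to its own number.

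Leaving out training array 11 or validation array 13, chosen after seeing the data, gave 415 to 1379 calls for actin, against 1076 on all arrays, and 0 to 3756 for GAPDH, against 2694. A filter on dim probe sets gave 1775 and 1338, and cohort in the fit 632 for actin. The cause was not tested.

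Of 4 list pairs called, 2 passed with array medians subtracted (neutrophil with T cell and B cell with interferon), 0 on validation arrays alone and 1 on training arrays alone, where n is 14. No called pair changed sign. Uncalled pairs did, some of them reaching values well away from 0. Platelet with interferon was -0.0411 by the median of members. On validation arrays alone, T cell with erythroid was 0.0267, erythroid with platelet -0.0323 and erythroid with interferon 0.56. On training arrays alone, B with T cell was -0.24 and T cell with interferon 0.26. With the actin difference and 18S partialled out, B with T cell was -0.0676, B cell with erythroid 0.0825, T cell with erythroid 0.21, erythroid with interferon 0.10 and erythroid with platelet -0.56 (adjusted permutation p = 0.00955). As rho, neutrophil with erythroid was 0.0153, B with T cell -0.0049 and T cell with interferon 0.0629. Without the 2 farthest arrays, neutrophil with erythroid was 0.15 and T cell with interferon 0.0897. The T cell and interferon pair ran from -0.1202 to 0.0122 without validation array 13 or training array 11.

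Of the 30 genes of largest SD, 19 were shared with a ranking by median absolute deviation, 17 with a threshold of 7 and 19 with training arrays alone, where Saa3 averaged 5.81 and so missed the threshold. Of the 30 brightest genes, 27 to 30 were shared under every alternative. The first component held 33.9% on validation arrays alone and 33.1% on training arrays alone.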

Other observations

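Transcripts of cells beyond the 6 lists also varied between control arrays. Cytotoxic and natural killer genes averaged 8.74 ± 0.37 (SD, n = 28), led by the granule protein gene Nkg7 (11.19 ± 0.41), the chemokine gene Ccl5 (11.15 ± 0.36), the receptor gene Klrd1 (10.23 ± 0.42) and granzyme A, Gzma (10.20 ± 0.65). Monocyte genes averaged 9.67 ± 0.32, with F13a1, Csf1r, Ms4a6c and Adgre4 the brightest. The eosinophil list was dim (4.96 ± 0.28), with the granule genes Prg2 at 2.90 ± 0.39 and Epx at 3.73 ± 0.31, while the surface receptor gene Siglecf was at 7.77 ± 0.52.

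Basophil and mast cell genes averaged 7.40 ± 0.53 and were lowest on validation array 13 (5.71), with training array 11 next (6.25). Both are the arrays that stood apart, and what part array quality had in these levels was not tested. On validation array 13 Fcer1a, the IgE receptor alpha chain, was at 3.67 and Ms4a2, its beta chain, at 5.93, their lowest values over all arrays. Mcpt8, a basophil protease, was at 4.79 there, against 4.57 on training array 11. MHC class II genes averaged 10.21 ± 0.32, with Cd74 and H2-Aa the brightest. Ribosomal protein genes were tightly tied to each other (median r to the other members 0.94). Proliferation genes averaged 6.31 ± 0.19, and only 10 of 19 had a mean of 6 or more. Their means ran from 2.93 to 10.36 (Pcna), with Mki67, the classic marker of cycling cells, at 8.98 ± 0.77. The median r of members to the rest was 0.30. Heat shock genes averaged 9.57 ± 0.14 and were highest on training array 11 (9.90), 1 of the arrays that stood apart.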
